A study of Saccharomyces cerevisiae with 6 samples.

Results

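The genes described here carry names of mitochondrial ribosomal proteins of budding yeast. All but MRP8 and RSM22 are counted here as structural proteins of that ribosome. The genes were chosen by name: every reading frame on the array whose standard gene name is MRPL, MRPS, MRP or RSM followed only by a number. The rule found 67 genes among 6205 reading frames, and all 67 had a value in each of the 6 conditions. MRPL genes, of which there were 34, encode proteins of the large subunit. The 20 small subunit genes were 9 MRPS and 11 RSM genes. For the remaining 13 genes, named MRP and a number, the name does not tell the subunit.

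Each condition was a 2-colour array comparison of treated cells with control cells of the same strain, grown in rich YEPD medium at low density. In the NAR1 strain (UCC3970), transcription of NAR1 depends on estradiol, and cells moved from 50 nM to 2 nM estradiol for 27 h were compared with cells kept at 50 nM. In the ATP1-111/ATP1-111 strain (UCC3980), cells were examined 27 h after loss of mitochondrial DNA (mtDNA) against the same strain with mtDNA. In wild type (WT, UCC1899), cells were examined 3, 11, 19 and 27 h after mtDNA loss against WT with mtDNA. In both of these strains mtDNA was removed by 6 h in 30 µg/ml ethidium bromide. The deposited value was the authors' average ratio over 6 arrays (5 for ATP1-111) from 3 biological replicates with dyes swapped, so that the spread between replicates cannot be seen. All values below are log2 ratios of treated over control cells unless a fold is named, and a ratio on an array tells a change relative to the other transcripts. RNA came from whole cultures, in which a smaller number of cells with a transcript and less of it per cell cannot be told apart.

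Nar1 is a protein of the cytosolic machinery that places iron-sulfur clusters on proteins, and Atp1 belongs to the catalytic part of the ATP synthase of mitochondria. The NAR1 transcript itself had a log2 ratio of -5.01 in the NAR1 strain, a ratio of 0.031. It was -0.03 in ATP1-111 and 0.51, 0.70, 0.88 and 1.17 in WT at 3, 11, 19 and 27 h.

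The mitochondrial ribosome makes the few proteins encoded by mtDNA, nearly all of them core subunits of the respiratory chain and the ATP synthase. Its RNAs come from mtDNA, while its proteins, with a single exception in yeast, are encoded in the nucleus, made in the cytosol and imported. Cells that have lost mtDNA therefore have neither the ribosomal RNA nor the messengers that this ribosome would read. The transcripts described here are those of the nuclear genes. Of the members, 41 are of the bacterial type, with a counterpart in bacterial ribosomes, and 24 are particular to mitochondria. The other two, MRP8 and RSM22, are not counted here as structural proteins: MRP8 was named from sequence and is now annotated outside the ribosome, and RSM22 resembles methyltransferases and is needed for the small subunit.

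The members' ratios stayed near 1 in every condition. Their median was -0.19 with NAR1 repressed and 0.19 in ATP1-111, and -0.12, 0.11, 0.07 and -0.0043 in WT at 3, 11, 19 and 27 h. Over all 6151 reading frames with complete values the median was 0.03 with NAR1 repressed and -0.02 in ATP1-111, and -0.01, -0.01, -0.04 and -0.06 in WT at the same times. The members thus lay below the median frame in the NAR1 strain and at 3 h, and above it in the other conditions. Members also differed less among themselves than frames in general. Their median absolute deviation was 0.15 against 0.27 for all frames with NAR1 repressed, 0.06 against 0.11 in ATP1-111, and 0.13 against 0.28 in WT at 27 h.

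**Figure D1:**
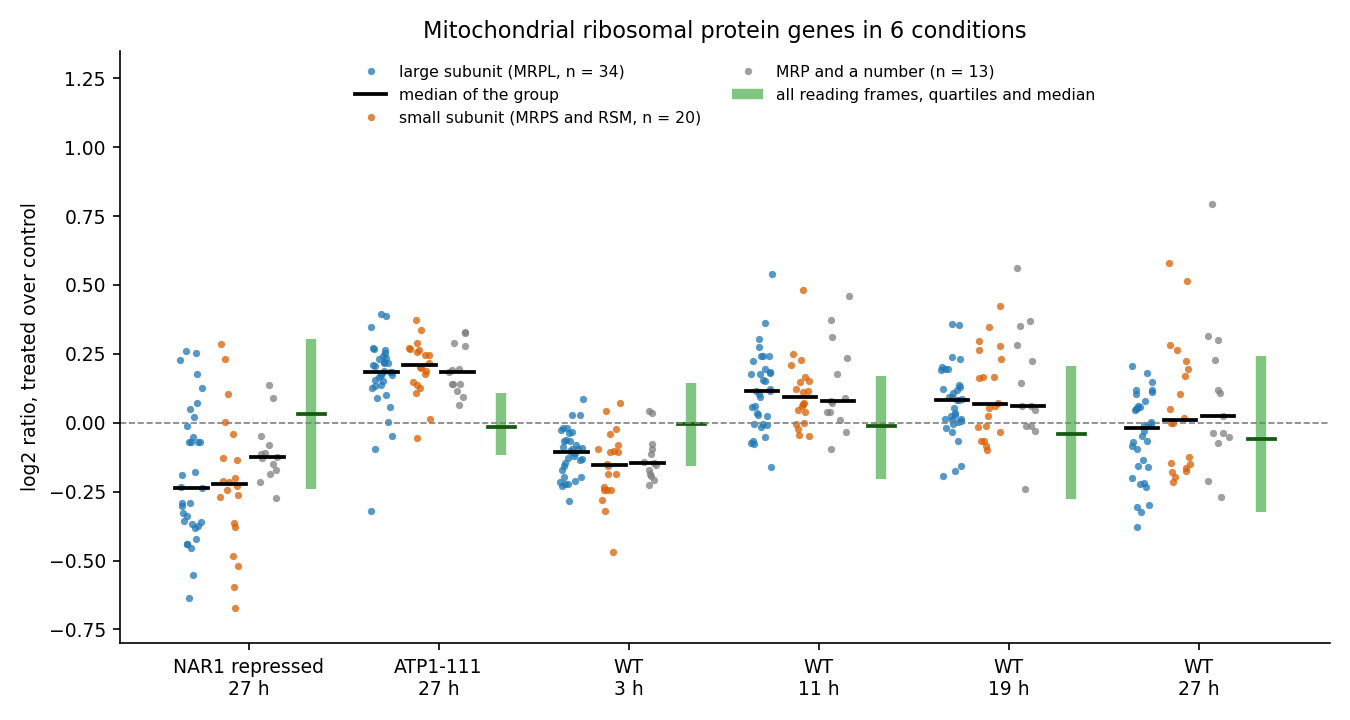
Log2 ratio (treated over control, y axis) of each of the 67 genes in each condition (x axis). Points are genes, coloured by name group, black bars are group medians, and green bars are the quartiles and median of all 6151 reading frames. The members lie mostly above 0 in ATP1-111 (median 0.19) and mostly below 0 with NAR1 repressed (median -0.19) and in WT at 3 h (median -0.12).

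Few members reached 1.5-fold in any condition. With NAR1 repressed 3 members were at least 1.5-fold lower, namely MRPL6, MRPS28 and MRPS9, where 10.1% of all frames were, and 0 were higher (9.71% of all frames). At 27 h in WT only MRP8 was at least 1.5-fold higher, where 11.1% of all frames were, and 0 members were lower (10.5% of all frames). In the other 4 conditions the number was 0 in both directions. In ATP1-111 1.93% of all frames were higher and 1.38% lower by that fold. In WT 2.18% were higher and 2.73% lower at 3 h. The shares were 4.42% higher and 3.84% lower by 11 h, then 8.65% higher and 8.29% lower by 19 h. At 2-fold there was no member below control with NAR1 repressed (3.72% of all frames) or above it in WT at 27 h (5.17%).

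At a smaller step, 0.32 in size on the log2 scale, the conditions separated more. With NAR1 repressed 19 of 67 members were lower by that much, beside 20.3% of all frames. In ATP1-111 7 members were higher, beside 5.56% of all frames. In WT 1 member was lower at 3 h (10.6% of all frames), 5 were higher at 11 h (13.0%) and 7 were higher at 19 h (17.2%). At 27 h 3 were higher (20.4%) and 2 lower (25.2%). In these directions the share of members past the step was above that of all frames in the NAR1 strain and in ATP1-111, and below it at every WT time.

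The question of the WT time course was how transcripts change in the hours after mtDNA is lost. At 3 h 60 of 67 members were below 0, beside 50.8% of all frames. The 7 above 0 were MRP10, MRP21, MRPL38, MRPL40, MRPL7, RSM27 and RSM7, and the highest of them was MRPL38 at 0.09. At 11 h 51 of 67 were above 0, beside 48.0% of all frames, and at 19 h 49 were, beside 45.6%. At 27 h 31 were above 0, beside 44.5%.

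Between 3 and 11 h the difference had a single sign across the whole group. All 67 members were higher at 11 h than at 3 h, where 48.0% of all frames were. The median difference was 0.24, the smallest was 0.0042 for RSM7 and the largest 0.70 for MRPL25. Of the 67 differences, 34 exceeded 0.241, the spread between duplicate spots of the same gene for such a difference, against 18.0% of all frames. That spread comes from 13 genes printed in duplicate and measures error within the arrays, not between cultures. Each time point is a single averaged column, and whether the WT columns shared control RNA is not given in the sources used here, so no test of this step alone could be made.

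After 11 h most members were lower again, by small amounts. From 11 to 19 h 43 were lower and 24 higher, with a median difference of -0.03 (53.9% of all frames lower). From 19 to 27 h 55 were lower and 12 higher, with a median of -0.10 (51.2% of all frames lower). Members were highest at 11 h in 39 cases, at 19 h in 19 and at 27 h in 9, and at 3 h in 0. Of all frames, 38.5% were highest at 3 h, 17.4% at 11 h, 18.2% at 19 h and 25.9% at 27 h. The 9 members highest at 27 h were MRP7, MRP8, MRPL10, MRPL4, MRPL9, MRPS16, MRPS35, RSM19 and RSM27.

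**Figure D2:**
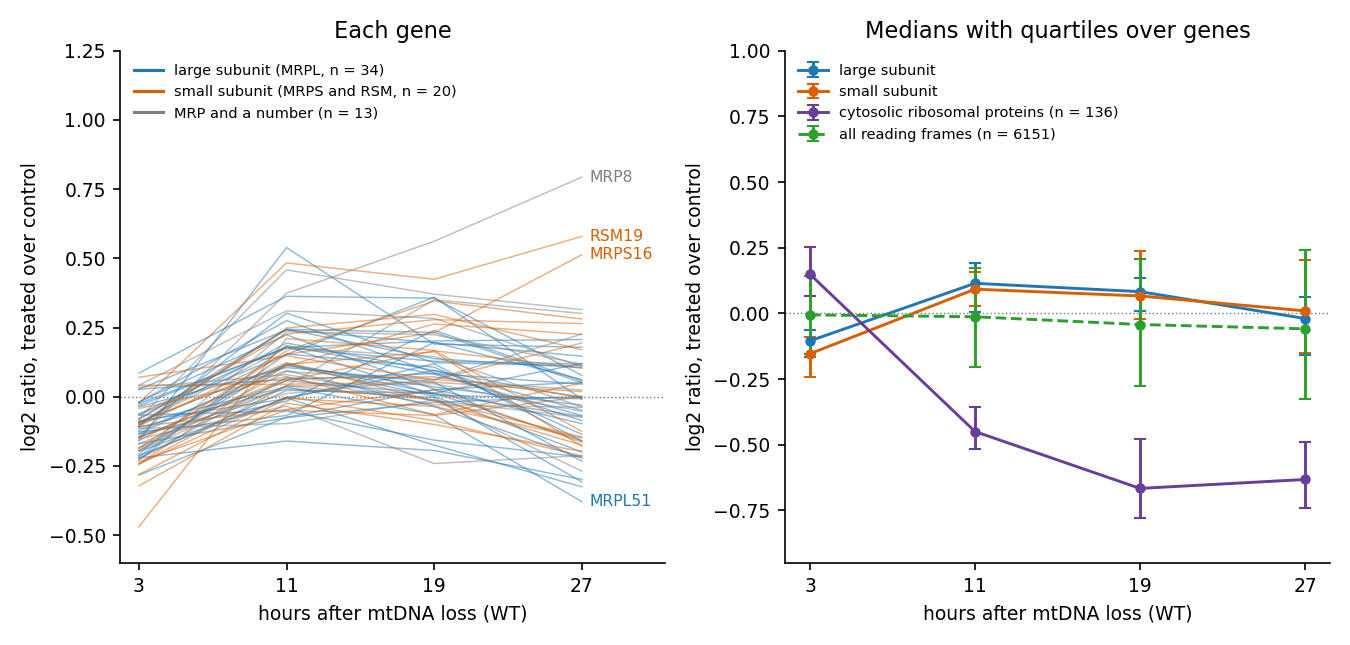
Log2 ratio (y axis) against hours after mtDNA loss in WT (x axis). The left panel has a line for each member, coloured by name group; the right panel has medians with quartiles over genes (bars) for both subunits, cytosolic ribosomal proteins and all frames. Every member is higher at 11 h than at 3 h, while the median of the cytosolic ribosomal proteins is lower at 11 h (-0.45) than at 3 h (0.15).

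A straight line through the 4 WT times called few members. In limma, fitted over all 6151 frames with a line in hours for WT, MRP8 rose by 0.90 ± 0.17 (SE) over 24 h, with an adjusted p of 0.0434. It was the only member past the threshold of 0.05, where 4.63% of all frames rose. No member fell, where 2.62% of all frames did. At an unadjusted p under 0.05, 5 members were higher (MRP8, MRPS16, MRP17, RSM19 and RSM10; 13.9% of all frames) and 0 were lower (16.2%). Ordinary least squares called 0 in both directions. The fit has 2 residual degrees of freedom, from the WT points about their line. A course that goes up and comes back, as most members had, counts as noise in it.

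MRP8 is not counted here as a structural protein of the ribosome. It had -0.17 with NAR1 repressed, 0.18 in ATP1-111, and -0.15, 0.37, 0.56 and 0.79 in WT at 3, 11, 19 and 27 h. It was the highest member at 19 and at 27 h, and its range over the WT columns, 0.94, was also the widest. The call was lost when any one of the WT time points was left out.

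Among MRPS and RSM genes, RSM19 and MRPS16, both of the bacterial type, were the highest at 27 h. RSM19 had -0.20 with NAR1 repressed, 0.37 in ATP1-111, and -0.02, 0.48, 0.42 and 0.58 over the WT times. MRPS16 had -0.04 with NAR1 repressed, 0.19 in ATP1-111, and -0.11, 0.15, 0.23 and 0.51 over the WT times. RSM19 was thus already high at 11 h. MRPS16 rose between 3 and 11 h and again, by a similar amount, between 19 and 27 h. Its earlier step exceeded the duplicate-spot spread of 0.241 for such a difference. The later step, 0.282, lay within the spread of 0.283 for that interval. Their changes over 24 h, 0.52 ± 0.20 and 0.58 ± 0.15 (SE), had limma adjusted p values of 0.156 and 0.0764. RSM10, the next highest of these genes at 27 h, had 0.28 there and 0.35 at 19 h.

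The MRPS and RSM genes lowest at 27 h were RSM26, MRPS8 and MRPS17, at -0.21, -0.20 and -0.18. MRPS18, which carries a bacterial-type protein, had the lowest value of any member at 3 h. Its values were -0.47, 0.21, 0.17 and -0.13 over the WT times. The step between 3 and 11 h, 0.68, was the largest in the small subunit.

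Among the MRPL genes the highest at 27 h were MRPL4, MRPL25 and MRPL40, at 0.21, 0.18 and 0.15. MRPL25, a protein particular to mitochondria, peaked at 11 h with -0.16, 0.54, 0.19 and 0.18 over the WT times. MRPL51, MRPL50 and MRPL19 were the lowest at 27 h, at -0.38, -0.33 and -0.31. MRPL51, also particular to mitochondria, had -0.09, 0.04, -0.06 and -0.38 over the WT times, so that most of the difference lay between 19 and 27 h.

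Genes named MRP and a number were spread in the same way. MRP20, a large subunit protein of the bacterial type at the exit of the peptide tunnel, had -0.08, 0.46, 0.37 and 0.31 over the WT times. MRP17, of the small subunit, had -0.19, 0.04, 0.35 and 0.30. The lowest at 27 h were MRP4, MRP2 and MRP10, at -0.27, -0.21 and -0.07.

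**Figure D3:**
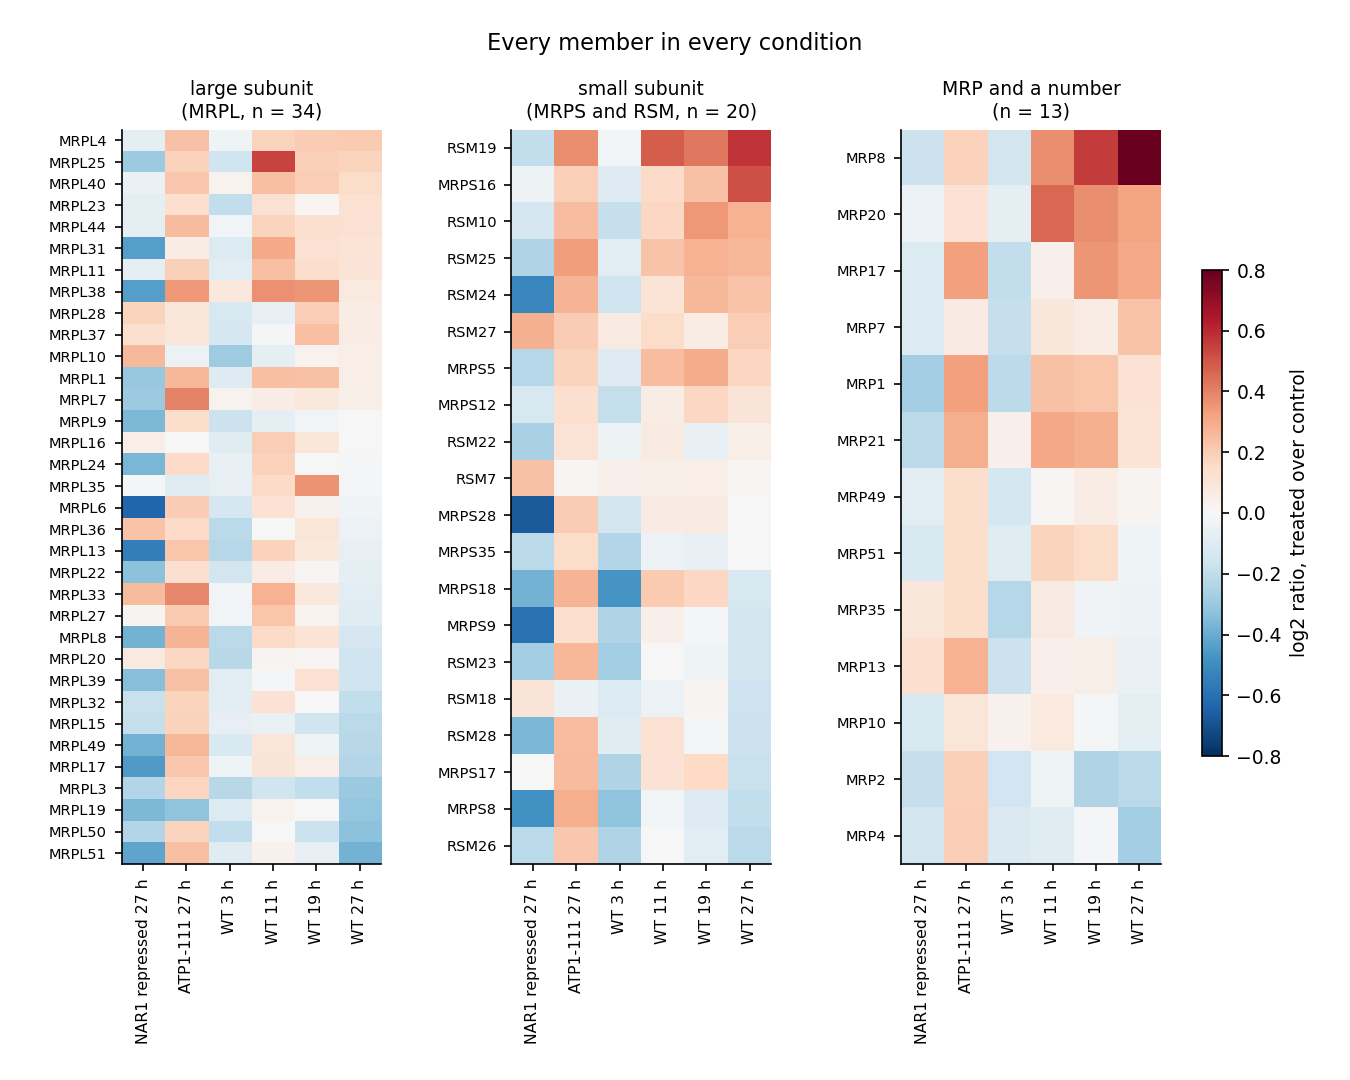
Log2 ratio (colour, red above and blue below control) of every member (down the page, by name group and ordered by the WT 27 h value) in every condition (across). The ATP1-111 column is red for 63 of 67 members and the NAR1 column blue for 53.

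Set side by side by name, the large subunit median was -0.24 and the small subunit median -0.22 with NAR1 repressed, and they were 0.18 and 0.21 in ATP1-111. In WT the large subunit medians were -0.10, 0.11, 0.08 and -0.02 at 3, 11, 19 and 27 h, and the small subunit medians -0.15, 0.09, 0.07 and 0.01. The difference between medians was at most 0.05 in size, at 3 h. Means differed more at 27 h in WT, where they were -0.05 for the large and 0.05 for the small subunit, a difference of -0.10 beside -0.03 between medians. With NAR1 repressed and in WT at 19 h the difference between means had the opposite sign to that between medians. MRP-number genes other than MRP8 were then added by their known subunit, and RSM22 was left out. With these 38 large and 27 small subunit genes the difference was at most 0.04 in size.

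The subunits were less alike in when they peaked. Of large subunit genes, 25 of 34 were highest in WT at 11 h, 6 at 19 h and 3 at 27 h. Of small subunit genes, 7 of 20 were highest at 11 h, 9 at 19 h and 4 at 27 h. The shares of all frames were 17.4%, 18.2% and 25.9%. From 11 to 19 h, 2 large subunit genes were higher and 1 lower by more than the duplicate-spot spread of 0.232. Of small subunit genes 0 were, where 15.9% of all frames were higher and 17.8% lower. For the other members of both subunits the order of 11 and 19 h lay within that spread. From 11 to 27 h, 29 of 34 large subunit genes were lower (median difference -0.17), and 12 of 20 small subunit genes were lower (median difference -0.05). Over all frames 55.7% were lower. Most of these differences were small: 9 large and 1 small subunit genes were lower by more than the duplicate-spot spread of 0.297, as were 16.9% of all frames. The contrast between subunits is a description without a test.

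Within the small subunit the MRPS and RSM genes had medians of -0.23 and -0.09 in WT at 3 h, 0.16 and 0.05 at 19 h, and -0.23 and -0.22 with NAR1 repressed. The members can also be set side by side by origin. The mitochondria-specific median was -0.21 and the bacterial-type median -0.18 with NAR1 repressed, and they were 0.20 and 0.19 in ATP1-111. At 11 h in WT they were 0.09 and 0.11, and this pooled difference was no larger than 0.035 in size in any condition. Within a subunit the classes differed more in some conditions. At 19 h in WT the small subunit medians were 0.02 for 10 mitochondria-specific and 0.16 for 17 bacterial-type genes. With NAR1 repressed they were -0.23 and -0.15 in the small subunit, but -0.14 and -0.21 in the large subunit, opposite in direction. These differences were not tested.

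ATP1-111 is a dominant allele known to let yeast grow well without mtDNA, and its column asks how far the response to mtDNA loss depends on strain. In ATP1-111 63 of 67 members were above 0, beside 46.3% of all frames. The 4 below 0 were MRPL19 at -0.32, MRPL35 at -0.09, RSM18 at -0.06 and MRPL10 at -0.05. The values were small and even: the quartiles of the members were 0.14 and 0.25. Of the members, 23 were above the duplicate-spot spread of 0.229 in this column and 1 below its negative, against 10.1% of all frames above and 11.2% below.

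No member passed the test of the ATP1-111 level against 0 in either direction in limma, where 0.0650% of all frames passed as higher and 0.0488% as lower. At an unadjusted p under 0.05, 4 members were higher (MRPL7, RSM25, MRP17 and MRPL33; 3.66% of all frames) and 0 lower (4.45%), and ordinary least squares also called 0. MRPL7, a bacterial-type protein of the large subunit, was the highest at 0.39 ± 0.11 (SE), with an adjusted p of 0.370. It had -0.29 with NAR1 repressed and 0.03, 0.06, 0.08 and 0.05 over the WT times, so that in WT it hardly left 0. MRPL33 had 0.39 and MRPL38 had 0.35 in ATP1-111, against -0.09 and 0.08 in WT at 27 h.

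The highest MRPS and RSM genes in ATP1-111 were RSM19 at 0.37, RSM25 at 0.34 and MRPS8 at 0.29. MRPS8 was at -0.20 in WT at 27 h, whereas RSM19 was at 0.58 and RSM25 at 0.26 there. The lowest of these genes were RSM18, RSM7 at 0.01 and RSM22 at 0.11. RSM7 was the member that varied least over the WT times, with values from 0.02 to 0.05.

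Set against WT at the same time, 56 of 67 members were higher in ATP1-111, beside 54.2% of all frames, with a median difference of 0.18. When each column was centred on its median the number was 46. Of the differences, 20 exceeded the duplicate-spot spread of 0.330 and 1 was below its negative, against 23.8% of all frames above and 20.2% below. Large subunit genes were higher in 30 of 34 cases, with a median difference of 0.21, and small subunit genes in 16 of 20, with a median difference of 0.09. The 11 members lower in ATP1-111 than in WT were MRP20, MRP7, MRP8, MRPL10, MRPL19, MRPL31, MRPL35, MRPS16, RSM10, RSM19 and RSM7.

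The extremes of this difference were MRPL51 and MRP8. MRPL51 had 0.24 in ATP1-111 against -0.38 in WT, and MRP8 had 0.18 in ATP1-111 against 0.79 in WT. Against the fitted WT value at 27 h, MRPL51 was higher in ATP1-111 by 0.51 ± 0.18 and MRP8 had a difference of -0.66 ± 0.17 (SE). Their limma adjusted p values were 0.141 and 0.0727. No member passed this test in either direction, where 3.09% of all frames were called higher and 4.62% lower. At an unadjusted p under 0.05 4 members were higher (MRPL3, MRPL15, MRPL51 and MRP2; 15.3% of all frames) and 1 (MRP8) lower (14.4%). Ordinary least squares called 0 in both directions. MRPL19 stood at -0.32 in ATP1-111 and -0.31 in WT, and was -0.36 with NAR1 repressed.

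Across members the ATP1-111 values followed the WT 27 h values little. Pearson's r was 0.16 and Spearman's rho 0.04 over the 67 members, against 0.48 and 0.37 over all 6151 frames. Each strain had its own control cells. The members' narrow range limits any such correlation, and genes are not independent replicates.

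**Figure D4:**
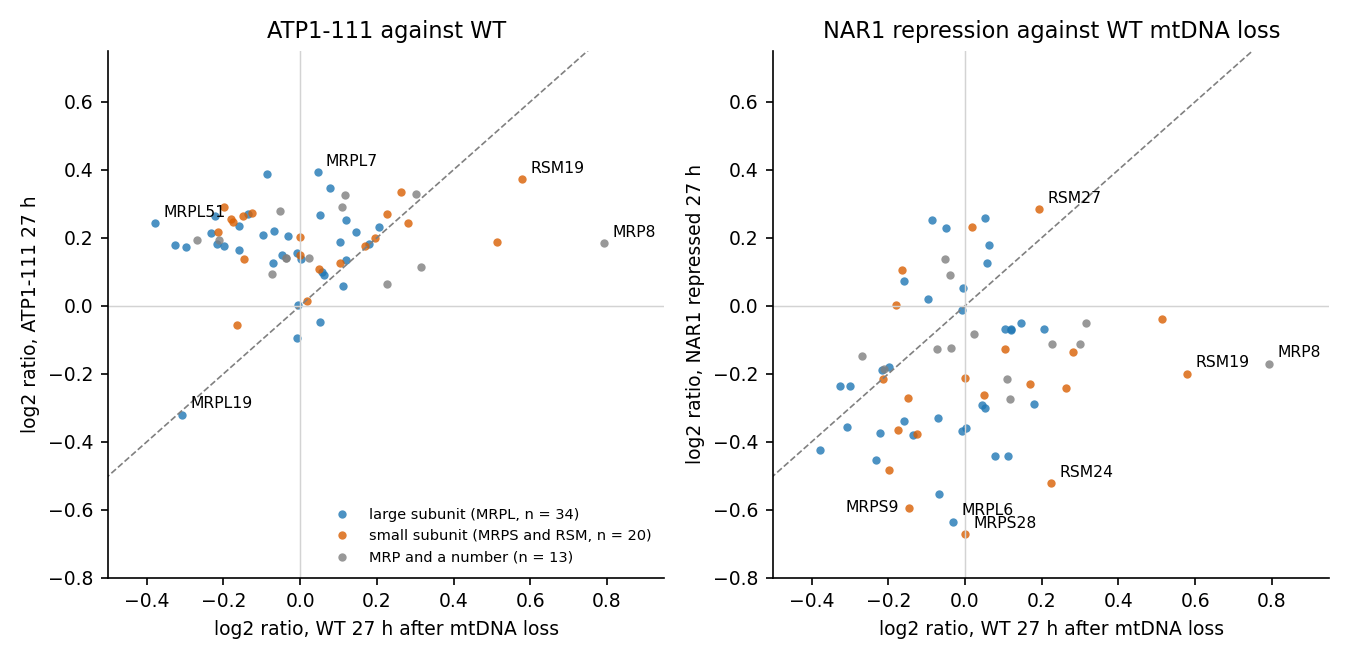
Log2 ratio of each member in ATP1-111 (left, y axis) and with NAR1 repressed (right, y axis) against WT 27 h after mtDNA loss (x axis); the dashed line marks equal values. In ATP1-111 56 of 67 members lie above the line, and with NAR1 repressed 47 lie below it.

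The NAR1 column asks what repressing the gene of a cytosolic iron-sulfur assembly protein does in cells with no ethidium bromide treatment in the labels. The labels give neither mtDNA content nor Nar1 protein. The estradiol dose changed together with NAR1, so their effects cannot be told apart. With NAR1 repressed 53 of 67 members were below 0, beside 46.7% of all frames. The members' quartiles were -0.35 and -0.05. Beyond the duplicate-spot spread of 0.237 there were 26 members below and 3 above, against 25.4% of all frames below and 30.1% above. The 14 members above 0 were MRP13, MRP35, MRPL10, MRPL16, MRPL20, MRPL27, MRPL28, MRPL33, MRPL36, MRPL37, MRPS17, RSM18, RSM27 and RSM7.

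In limma 4 of 67 members were lower with NAR1 repressed (11.2% of all frames were) and 0 higher (13.3% of all frames were). At an unadjusted p under 0.05 16 were lower (18.5% of all frames) and 1, RSM27, was higher (22.4%). The 4 called after adjustment were MRPS28, MRPL6, MRPS9 and RSM24. Ordinary least squares called 0, and the 4 WT points about their line supply the error for this single column.

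MRPS28 encodes a small subunit protein of the bacterial type, the counterpart of a protein that binds ribosomal RNA early in assembly. It had -0.67 ± 0.12 (SE) with NAR1 repressed (limma adjusted p = 0.0199), against 0.20 in ATP1-111 and -0.15, 0.07, 0.07 and 0 over the WT times. MRPL6, a bacterial-type protein of the large subunit, had -0.63 ± 0.13 (adjusted p = 0.0254), against 0.21 in ATP1-111 and -0.13, 0.11, 0.04 and -0.03 over the WT times. In both genes the NAR1 value lay far below all 5 others.

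MRPS9, a bacterial-type small subunit protein, had -0.60 ± 0.14 (adjusted p = 0.0362), against 0.14 in ATP1-111 and -0.24, 0.04, -0.01 and -0.15 over the WT times. RSM24, particular to mitochondria, had -0.52 ± 0.12 (adjusted p = 0.0372), against 0.27 in ATP1-111 and -0.16, 0.11, 0.26 and 0.23 over the WT times. MRPL13, at -0.55 ± 0.17, was lower than RSM24 but not called (limma adjusted p = 0.0661). MRPS8 had -0.48 ± 0.14 (0.0596) and MRPL17 had -0.45 ± 0.14 (0.0687). The highest were RSM27 at 0.28, MRPL10 at 0.26, MRPL33 at 0.25, RSM7 at 0.23 and MRPL36 at 0.23. Without the WT 19 h column 0 members were called, and without the WT 3 h column 10 members were called.

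Set against WT at 27 h, 47 of 67 members were lower with NAR1 repressed, beside 43.7% of all frames, with a median difference of -0.19. Against the fitted WT value 5 members were lower in limma (12.1% of all frames were) and 0 higher (13.9% of all frames were). At an unadjusted p under 0.05 the numbers were 16 (18.5% of all frames) and 0 (24.1%). The 5 were MRP8 at -1.02 ± 0.17 (adjusted p = 0.0151), RSM24 at -0.83 ± 0.16 (0.0232), MRPS28 at -0.74 ± 0.16 (0.0289), RSM19 at -0.83 ± 0.19 (0.0358) and MRPL6 at -0.67 ± 0.17 (0.0411). For MRP8 and RSM19 the difference came with high values in WT, 0.79 and 0.58 at 27 h, while their NAR1 values were -0.17 and -0.20. For MRPS28 and MRPL6 it came with the low NAR1 value. Ordinary least squares called 0. Without the WT 19 h column 0 were called, and without the 11 h or the 27 h column 3 were.

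NAR1 repression and ATP1-111 lay on opposite sides of 0 for 51 of 67 members, above in ATP1-111 and below with NAR1 repressed, as for 21.2% of all frames. With NAR1 repressed 58 members were lower than in ATP1-111, beside 46.9% of all frames, by a median difference of -0.37. Of these, 39 were lower by more than the duplicate-spot spread of 0.330, and 0 were higher by more than it, where 1345 of all 6151 frames (21.9%) were lower and 1602 higher. The 2 strains differ in treatment as well as genotype, so this sets the columns side by side.

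Other genes of mitochondrial gene expression give the setting. The 12 ribosomal proteins with names outside the rule had medians of -0.08 with NAR1 repressed and 0.14 in ATP1-111, and -0.15, 0.08, 0.11 and -0.09 over the WT times. All 12 were above 0 in ATP1-111 (46.3% of all frames), and 10 of 12 were higher at 11 h than at 3 h (48.0%). The exceptions to the step were MNP1, a stalk protein, with -0.51 at 3 h and -0.84 at 11 h, and RTC6. MHR1, a ribosomal protein also known for a role in mtDNA recombination, had -0.15, 0.65, 0.49 and 0.54 over the WT times. FYV4 was the highest in ATP1-111 at 0.45. With NAR1 repressed limma called 11.2% of all frames lower. In limma EHD3 was lower with NAR1 repressed, at -0.63 ± 0.11 (SE, adjusted p = 0.0182), and was the only one of the 12 called against 0.

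The 9 translation factors had a median of -0.50 with NAR1 repressed, and all 9 were below 0 there, beside 46.7% of all frames. Limma called 11.2% of all frames lower in that column. TUF1, the mitochondrial elongation factor Tu, had -0.81 ± 0.19 (limma adjusted p = 0.0364) and AIM23, the initiation factor that resembles bacterial factor 3, had -0.78 ± 0.14 (0.0206). In ATP1-111 the list median was -0.01 and in WT at 27 h -0.16. MEF1, an elongation factor, had 0.18 in ATP1-111 against -0.54 in WT at 27 h.

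The 13 mitochondrial aminoacyl-tRNA synthetases, which charge tRNAs for this ribosome, had medians of -0.39 with NAR1 repressed and 0.15 in ATP1-111, and -0.19, 0.13, 0.22 and 0.13 over the WT times. Of them 12 of 13 were higher at 11 h than at 3 h (48.0% of all frames) and 12 were above 0 in ATP1-111 (46.3%). With NAR1 repressed 4 were lower in limma (11.2% of all frames were), namely MSK1, MSF1, MST1 and MSE1, and MSK1 was far the lowest at -1.59 ± 0.12 (adjusted p = 0.0036). Against fitted WT 7 of 13 were lower (12.1% of all frames were).

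The 10 assembly and RNA factors had medians of 0.05 with NAR1 repressed, 0.17 in ATP1-111 and 0.15 in WT at 27 h. MTG1, a GTPase of large subunit assembly, had 0.54 with NAR1 repressed, -0.07 in ATP1-111 and -0.15, 0.02, 0.48 and 1.42 over the WT times. It rose in WT by 1.55 ± 0.27 over 24 h (limma adjusted p = 0.0363) and was lower in ATP1-111 than fitted WT by a difference of -1.29 ± 0.26 (0.0488). GEP3, also linked to ribosome assembly, was higher with NAR1 repressed, at 0.67 ± 0.11 (0.0161). Of all frames limma called 4.63% as rising in WT and 4.62% as lower in ATP1-111 than fitted WT. It called 13.3% as higher with NAR1 repressed. MAM33 had 0.57 in ATP1-111 against -0.03 in WT at 27 h.

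The 15 activators, each needed for translation of particular mitochondrial messengers, had medians of 0.11 with NAR1 repressed, 0.03 in ATP1-111 and -0.21 in WT at 27 h. MSS51 and PET122 were lower with NAR1 repressed in limma, at -0.69 ± 0.14 and -0.89 ± 0.11 (SE, adjusted p = 0.0240 and 0.0095). Of all frames 11.2% were called lower with NAR1 repressed. CBP3 was the lowest at 27 h in WT, at -0.76, and AEP1 the highest, at 0.54. Among 5 genes of mitochondrial transcription, MSS116 was lower with NAR1 repressed, at -0.53 ± 0.14 (0.0470). MTF2 was at -1.16 in WT at 3 h and at 0.11 at 11 h. The upward step from 3 to 11 h in WT was not particular to the ribosomal proteins. Higher at 11 h were 9 of 10 assembly and RNA factors (median difference 0.23) and all 5 transcription genes (0.22). So were 7 of 9 translation factors (0.18) and 10 of 15 activators (0.07). The members' median difference was 0.24, and 48.0% of all frames were higher.

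The cytosolic ribosome differed from the mitochondrial one in its first step in WT. Its 136 protein genes had medians of -0.51 with NAR1 repressed and -0.13 in ATP1-111, and 0.15, -0.45, -0.67 and -0.63 in WT at 3, 11, 19 and 27 h. Between 3 and 11 h 132 of 136 were lower, where all 67 mitochondrial genes were higher and 51.7% of all frames were lower. From 11 to 27 h both had negative median differences, -0.14 for the members (50 of 67 lower) and -0.18 for the cytosolic genes (114 of 136 lower). Over all frames 55.7% were lower in that interval. At 27 h 80 of 136 cytosolic genes were at least 1.5-fold lower in WT, against 0 of 67 mitochondrial ones and 10.5% of all frames. Higher in ATP1-111 than in WT at 27 h were 135 of 136 cytosolic genes (median difference 0.47) and 56 of 67 members (0.18). Over all frames 54.2% were. Lower with NAR1 repressed than in ATP1-111 were 117 of 136 cytosolic genes (-0.35) and 58 of 67 members (-0.37), beside 46.9% of all frames. NAR1 repression against WT at 27 h had median differences of 0.15 in cytosolic genes and -0.19 in members.

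**Figure D5:**
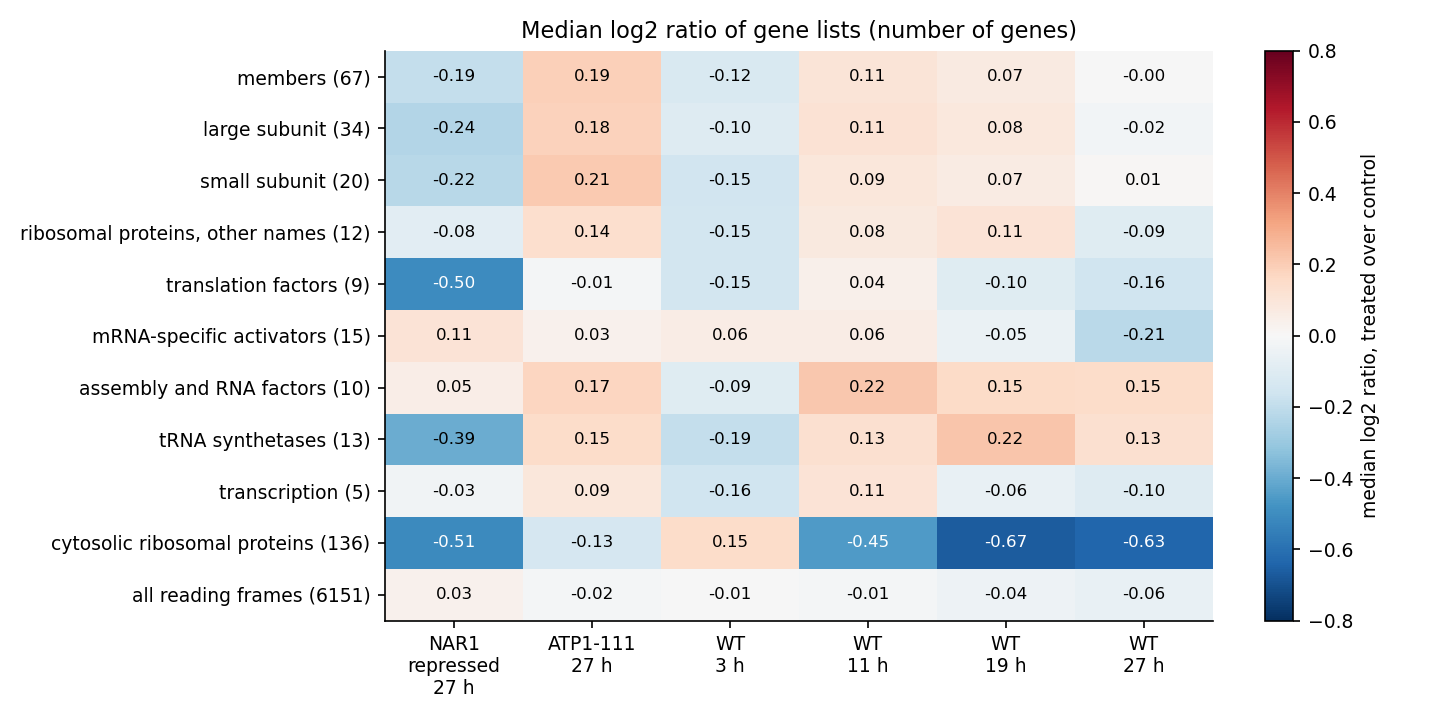
Median log2 ratio (printed and coloured) of each gene list (down the page, number of genes in parentheses) in each condition (across). The members' medians run from -0.19 with NAR1 repressed to 0.19 in ATP1-111, and the cytosolic ribosomal proteins reach -0.67 in WT at 19 h.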

How the data were processed

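The deposited values were the authors' linear ratios of treated over control cells, 1 averaged column per condition, per the labels. RNA was primed with oligo(dT) and labelled with Cy3 or Cy5, per the labels' protocols. The sources used here do not give scanner, background correction or normalization, so signal over background is unknown. Ratios were taken to log2 and duplicate spots averaged. Names came from RefSeq's gene table, which matched 5705 of 6205 frames.

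limma 3.58.1 (R 4.3.3) was fitted over the 6151 frames with 6 values: a WT line in hours, a WT level at 27 h, an ATP1-111 level and a NAR1 level, with 2 residual and 3.349 prior degrees of freedom. The ATP1-111 and NAR1 columns are assumed to vary as WT does about its line. The p-values measure only the spread of the 4 WT columns about that line, drawn towards the spread over all frames. They are two-sided and Benjamini-Hochberg adjusted over all frames, with a threshold of 0.05. The fit was tested on simulated data. Duplicate-spot spread is the root mean square, over 13 genes with 2 spots, of the SD between the spots of a gene. For a difference it is the root of the summed squares of the spreads of both columns. No multiple of it was taken.

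The members and lists were chosen with earlier results of these data known. Named members passed a test, had the 3 highest or lowest values of a subunit in WT at 27 h, ATP1-111 or NAR1 or of the MRP-number genes in WT at 27 h, or had the 3 widest WT ranges; from the other lists, up to 4 genes with the largest values in WT at 27 h or ATP1-111. Other names, those listed as exceptions to a count and those called in the other lists were chosen after their values were seen. Centred columns, the log of hours, ordinary least squares, equal spread, other fold steps and leaving out WT times were alternatives. Promoter and protein sequences were not used here.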

Additional observations from a re-analysis of the deposited data

How the results depend on the processing

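Of 309 alternative values, 238 kept their side of the threshold or moved little, medians being judged against the duplicate-spot SD scaled to a median of that many genes, a yardstick chosen after seeing the data. The members' medians moved by at most 0.06. In WT at 19 h the median of 0.07 became 0.11 with centred columns and 0.098 as a mean. At 27 h the median of -0.0043 became 0.055 with centred columns and 0.0079 as a mean, so its sign is not settled. The difference between subunits changed sign in 4 of 24 alternatives, 1 in WT at 19 h and 3 with NAR1 repressed, and moved by at most 0.07. Counts of members above or below 0, or another column, were repeated under centred columns, without MRP8 and with ribosomal proteins of other names. They stayed within 1.5 times, except for the 11 members lower in ATP1-111 than in WT at 27 h. That count rose by more than 1.5 times under centred columns. These alternatives were chosen after seeing the data. Calls by limma were less stable, and the cause was not tested. For the WT change, where 1 member was called, ordinary least squares and equal spread gave 0, and leaving out WT times gave 0 in each case. For the NAR1 level (4 lower), ordinary least squares and equal spread gave 0, and leaving out WT times gave 0 to 10. For NAR1 minus fitted WT (5 lower), the log of hours gave 8, ordinary least squares and equal spread 0, and leaving out WT times 0 to 5. For the ATP1-111 level (0 higher), equal spread gave 1. Of 90 alternative estimates of named members 39 lost the threshold and 0 reversed. At a step of 0.32 in size on the log2 scale in place of 1.5-fold, the counts were 19 lower with NAR1 repressed, 7 higher in ATP1-111, and in WT 1 lower at 3 h, 5 higher at 11 h, 7 higher at 19 h, and 3 higher and 2 lower at 27 h. At 2-fold the counts with NAR1 repressed and in WT at 27 h were 0. Centring gave 1 higher at 19 h and 2 at 27 h in WT, and without MRP8 27 h had 0.

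No paired analysis was possible because each group holds a single column. The number of arrays and the averaging limit the precision, and neither replicate spread nor spot brightness was used.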

Other observations

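The gene upstream of a member was read divergently in 37 cases and in tandem in 28. Divergent neighbours had a median of 0.02 with NAR1 repressed and -0.05 in ATP1-111, where the 37 members beside them had medians of -0.15 and 0.21. MRPL6, at -0.63 with NAR1 repressed, is divergent from IMP3, a gene of cytosolic small subunit processing, at 0.97. MRPS9, at -0.60, follows ADH5 in tandem, which was at -1.34. Over the 28 tandem pairs with NAR1 repressed Pearson's r was 0.04, and 15 pairs had the same sign. Over the 37 divergent pairs r was 0.19 there, and 21 had the same sign. In WT at 3, 11, 19 and 27 h r was -0.02, 0.37, 0.24 and 0.34 over the tandem pairs. Of these, 16, 16, 10 and 12 pairs had the same sign. Over the divergent pairs r was 0.27, -0.09, -0.04 and 0.17 at those times. MRP8, the member that rose in WT, follows LTV1, a factor of cytosolic small subunit export, which was at 0.79, 0.77, 0.38 and 0.66 in WT at 3, 11, 19 and 27 h.

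RSM19 lies directly upstream of MRPS12 in tandem. Over the WT times RSM19 had -0.02, 0.48, 0.42 and 0.58, and MRPS12 had -0.19, 0.06, 0.17 and 0.10.

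Across the 67 members Pearson's r between gene length and log2 ratio lay between -0.18 with NAR1 repressed and -0.06 in ATP1-111 and in WT at 27 h.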
